A study of Mus musculus with 6 samples.

Results

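The 10 genes described here belong to the mouse Cyp2b and Cyp3a subfamilies of cytochrome P450, and they were taken by symbol, as a fixed list, from the 28450 genes of the deposited table. They are 3 Cyp2b genes (Cyp2b9, Cyp2b10 and Cyp2b13) and 7 Cyp3a genes (Cyp3a11, Cyp3a13, Cyp3a16, Cyp3a25, Cyp3a41a, Cyp3a44 and Cyp3a59), and each symbol matched 1 row. RNA was sequenced from the livers of 3 Acsm3 knockout mice and 3 control mice, whose genotype is given as WT. All 6 were males of 12 weeks on a normal diet, with 1 library of poly(A) RNA from each. The product of Acsm3 activates medium-chain fatty acids in mitochondria. The sources used here do not give how the allele was made, in which cells it was disrupted, or the strain.

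Cytochrome P450 enzymes of these subfamilies sit in the endoplasmic reticulum of hepatocytes, where they oxidise drugs, steroids and bile acids with electrons passed on by P450 oxidoreductase. Their genes are switched on by 2 nuclear receptors that sense foreign compounds and bile acids, the constitutive androstane receptor CAR (Nr1i3) and the pregnane X receptor PXR (Nr1i2), each of which binds DNA together with the retinoid X receptor. Cyp2b10 is the classic CAR target and Cyp3a11, the counterpart of human CYP3A4, the classic PXR target. Several other members are higher in female than in male mouse liver under the control of growth hormone. These are Cyp2b9, Cyp2b13, Cyp3a41a and Cyp3a44, while Cyp3a16 is best known from fetal and neonatal liver.

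The members are related copies, most of them in a gene cluster of their own subfamily. The Cyp2b genes lie on the plus strand of chromosome 7 in GRCm38, with Cyp2b10 at 25897620 to 25926624, Cyp2b13 at 26061497 to 26096197 and Cyp2b9 at 26173411 to 26210661. On chromosome 5, Cyp3a11 lies on the minus strand at 145854426 to 145879964, Cyp3a25 on the minus strand at 145977194 to 146009618 and Cyp3a59 on the plus strand at 146079257 to 146113287, so that Cyp3a25 and Cyp3a59 stand head to head. Cyp3a16, Cyp3a41a and Cyp3a44 lie on the minus strand of the same cluster, and Cyp3a13 lies apart on the same chromosome at 137892932 to 137921619. Between the coding sequences of Cyp2b9 and Cyp2b13, 92.7% of aligned bases are identical, and between those of Cyp3a25 and Cyp3a59, 97.5%. Other pairs are less alike, with 87.7% for Cyp2b9 and Cyp2b10, 76.4% for Cyp3a11 and Cyp3a25 and 77.1% for Cyp3a11 and Cyp3a13. Of the 100-base windows of the Cyp2b9 transcript, 1.18% occur unchanged in a transcript of another gene, against 9.29% for Cyp2b13, 0% for Cyp2b10, 0.312% for Cyp3a11, 5.61% for Cyp3a59 and 90.8% for Cyp3a41a. The sources used here do not give how fragments that match several copies were divided. The values of Cyp3a41a and Cyp3a41b, and in part those of Cyp2b13, Cyp3a25 and Cyp3a59, are therefore uncertain.

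The 250 bases before the RefSeq start site are shown for 6 members, because Cyp2b9 and Cyp2b13, and likewise Cyp3a25 and Cyp3a59, have nearly the same window and differ in their levels, and because Cyp2b10 and Cyp3a11 are the classic CAR and PXR targets. The sequences come from RefSeq (GRCm38.p6), which held a window for all 10 members. They are written 5′ to 3′ on the gene's own strand and end at the base before the start, and capitals mark AGGTCA or AGTTCA on either strand, core motifs bound by CAR, PXR and many other nuclear receptors. The windows are chr7:26173159-26173408 for Cyp2b9, chr7:26061245-26061494 for Cyp2b13, chr7:25897408-25897657 for Cyp2b10, chr5:145879855-145880104 for Cyp3a11, chr5:146009619-146009868 for Cyp3a25 and chr5:146079008-146079257 for Cyp3a59.
Cyp2b9: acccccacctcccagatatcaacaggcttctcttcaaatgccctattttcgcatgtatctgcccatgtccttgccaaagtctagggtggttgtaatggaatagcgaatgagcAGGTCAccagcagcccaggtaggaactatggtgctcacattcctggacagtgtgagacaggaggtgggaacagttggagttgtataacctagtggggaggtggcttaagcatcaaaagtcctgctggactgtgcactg
Cyp2b13: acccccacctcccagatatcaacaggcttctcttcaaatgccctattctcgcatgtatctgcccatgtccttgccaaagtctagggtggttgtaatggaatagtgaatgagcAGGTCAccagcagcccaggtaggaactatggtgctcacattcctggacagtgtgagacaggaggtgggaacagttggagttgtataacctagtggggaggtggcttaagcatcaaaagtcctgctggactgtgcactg
Cyp2b10: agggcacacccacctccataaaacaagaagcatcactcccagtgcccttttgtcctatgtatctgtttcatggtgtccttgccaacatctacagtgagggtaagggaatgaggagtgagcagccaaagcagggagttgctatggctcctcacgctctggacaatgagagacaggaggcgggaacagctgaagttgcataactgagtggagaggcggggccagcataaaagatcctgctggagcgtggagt
Cyp3a11: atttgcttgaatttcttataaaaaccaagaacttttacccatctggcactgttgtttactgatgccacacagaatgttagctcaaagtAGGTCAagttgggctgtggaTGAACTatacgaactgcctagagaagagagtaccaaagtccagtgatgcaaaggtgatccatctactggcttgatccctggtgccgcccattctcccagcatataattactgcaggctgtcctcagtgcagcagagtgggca
Cyp3a25: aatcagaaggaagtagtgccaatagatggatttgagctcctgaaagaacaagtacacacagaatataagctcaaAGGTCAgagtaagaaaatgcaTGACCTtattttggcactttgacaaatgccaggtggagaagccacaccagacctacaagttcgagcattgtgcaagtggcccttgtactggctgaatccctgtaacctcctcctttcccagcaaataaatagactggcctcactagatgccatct
Cyp3a59: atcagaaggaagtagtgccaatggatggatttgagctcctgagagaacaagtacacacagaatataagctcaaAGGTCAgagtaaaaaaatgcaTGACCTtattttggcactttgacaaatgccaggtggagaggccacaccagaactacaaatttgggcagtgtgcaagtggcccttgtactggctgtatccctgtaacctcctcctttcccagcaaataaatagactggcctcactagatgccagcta

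Over these 250 bases Cyp2b9 and Cyp2b13 differ at 2 positions, T48C and C104T, with the base of Cyp2b9 first and positions counted from 1 at the first base shown. Both hold 1 AGGTCA, at positions -138 to -133 from the start. The window of Cyp2b10 matches that of Cyp2b9 at 75.8% of aligned bases and holds neither motif. The windows of Cyp3a25 and Cyp3a59 match at 95.6% of aligned bases, and each holds AGGTCA on both strands. In Cyp3a11, AGGTCA lies at positions -162 to -157 and AGTTCA, on the other strand, at -142 to -137 from the start. Of 32851 such windows in the RefSeq table, 14.0% hold AGGTCA and 11.8% hold AGTTCA on either strand. Paired forms known to bind CAR and PXR were searched on both strands too. Repeats of AGGTCA with 4 bases between them were found in 0.0152% of the windows, repeats of AGTTCA with 3 bases between them in 0%, and AGTTCA facing away from its reverse complement across 6 bases in 0.00609%. None of these was found in the windows of the 10 members. The palindrome TTCNNNGAA, the form bound by STAT5, the factor that carries the growth hormone signal, was found in 7.02% of the windows and in none of the 10. The best known enhancers of Cyp2b10 and Cyp3a11 lie further upstream than these windows reach.

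Levels are in FPKM as deposited, that is, fragment numbers divided by gene length and by library total. Low FPKM multiplied by the exon length of the gene moved in steps of 1 fragment, which implied totals of 15302272 to 16175628 fragments in the knockout libraries and 15712109 to 16345035 in the control libraries. With these totals, all 60 member values came out within 0.1 of a whole number of fragments. The targeted gene checked the labels, with Acsm3 at 0.668, 2.92 and 1.08 FPKM in knockouts 1, 2 and 3, against 33.2, 34.4 and 32.2 FPKM in controls 1, 2 and 3. Differences below are of log2(FPKM + 1), knockout minus control, with the SE moderated by limma and adjusted p-values over the 10996 genes whose mean reached 1 FPKM. The +1 understates the change of genes with low FPKM. Of the 10 members, 7 reached that mean and were tested, and 3 did not.

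Of the 7 tested members, Cyp3a11 and Cyp3a59 rose in the knockouts and Cyp2b9 fell, while Cyp2b10, Cyp2b13, Cyp3a13 and Cyp3a25 did not pass an adjusted p of 0.05 (limma). Among all genes tested 13.9% passed as higher and 2.61% as lower, 16.5% in all. The 3 knockout values lay wholly above the 3 control values for 3 members (Cyp3a11, Cyp3a59 and Cyp2b10) and wholly below for Cyp2b9, where the shares over all genes tested were 33.9% and 7.91%, 41.8% in all. The plot of FPKM by liver shows the 7 members.

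**Figure D1:**
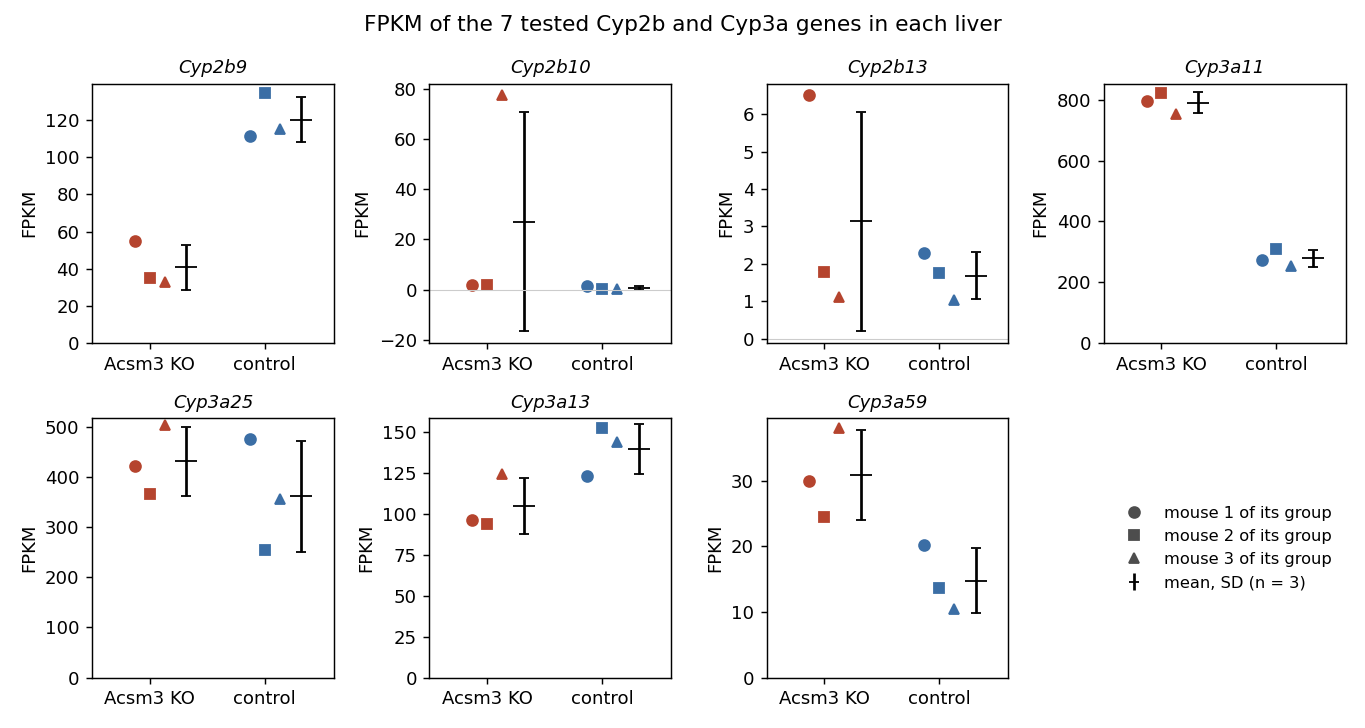
FPKM (linear axes, 1 scale per gene) of the 7 tested members in the 3 Acsm3 knockout livers (left) and the 3 control livers (right), 1 point per liver, with the mean and SD beside them (n = 3). Cyp3a11 and Cyp3a59 lie higher and Cyp2b9 lower in every knockout than in every control, and the high mean of Cyp2b10 comes from knockout 3 at 77.4 FPKM.

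Cyp3a11 had the highest level of the members in knockout livers and, of the 7 tested, the smallest SD relative to its mean there. It was at 795, 822 and 754 FPKM in knockouts 1, 2 and 3, against 274, 308 and 253 FPKM in controls 1, 2 and 3. All 3 knockouts lay far above all 3 controls, and the lowest knockout value was well over the highest control value. The means were 790 ± 33.9 FPKM in knockout and 278 ± 28.0 FPKM in control livers (SD, n = 3 each), a ratio of 2.84. The difference was 1.51 ± 0.10 (SE, adjusted p = 0.00217 by limma). By mean FPKM, Cyp3a11 stood at place 60 of all listed genes in knockout and at place 164 in control livers. These values rest on 62146 to 64035 fragments in the knockouts and 20227 to 24852 in the controls. Cyp3a11 kept its call in all 18 alternative fits, with differences from 1.34 to 1.58.

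The FPKM of Cyp3a11 depends on its gene model. The length behind its deposited values is the 5093 bases of all annotated exons, among them a transcript with a retained intron, whereas its coding transcript has 2344 bases. Scaled to the coding transcript, the same fragments gave 1718 ± 73.7 FPKM in knockout and 605 ± 60.8 FPKM in control livers (SD, n = 3 each). The change between groups is the same on either length, but the order of members is not. With the deposited values the control livers had Cyp3a25 above Cyp3a11, at 362 ± 110 and 278 ± 28.0 FPKM (SD, n = 3), with ranges that overlapped. With coding lengths Cyp3a11 stood above Cyp3a25, at 605 ± 60.8 and 377 ± 115 FPKM in control livers (SD, n = 3). In knockout livers Cyp3a11 led on both scales.

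Cyp3a59, a little-studied member whose neighbour and closest copy is Cyp3a25, was at 29.98, 24.5 and 38.1 FPKM in knockouts 1, 2 and 3, against 20.2, 13.7 and 10.4 FPKM in controls 1, 2 and 3. The groups did not overlap, although the lowest knockout stood close to the highest control. The means were 30.9 ± 6.82 FPKM in knockout and 14.8 ± 4.97 FPKM in control livers (SD, n = 3 each), and the difference was 1.04 ± 0.25 (SE, adjusted p = 0.0368 by limma). This call was close to the threshold. It was lost after median-ratio rescaling (0.89, adjusted p = 0.0544), without a filter (adjusted p = 0.0883) and without any 1 of knockouts 1, 2 and 3 and controls 2 and 3 (adjusted p from 0.0662 to 0.107).

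Cyp3a25, an abundant liver form, was at 422, 366 and 504 FPKM in knockouts 1, 2 and 3, against 475, 254 and 356 FPKM in controls 1, 2 and 3. The ranges overlapped and the controls alone spanned 254 to 475 FPKM. The difference was 0.29 with a 95% interval from -0.27 to 0.84 (limma), so a change as large as that of Cyp3a11 lay outside the interval while a smaller rise or a small fall did not. Cyp3a25 and Cyp3a59 thus had close promoter windows and close coding sequences, and the lower of the pair in FPKM was the one that passed. The interval of Cyp3a59, from 0.45 to 1.63 (limma), overlapped that of Cyp3a25, and whether the changes of the pair differ was not tested.

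Cyp3a13, which is expressed in liver and intestine, was at 96.6, 93.8 and 125 FPKM in knockouts 1, 2 and 3, against 123, 153 and 144 FPKM in controls 1, 2 and 3. Knockouts 1 and 2 lay below every control, and knockout 3 lay within the control range. The means were 105 ± 17.0 FPKM in knockout and 140 ± 15.2 FPKM in control livers (SD, n = 3 each). The difference was -0.42 ± 0.14 (SE, adjusted p = 0.0775 by limma). It passed without knockout 3 (-0.54, adjusted p = 0.0270), with array weights (adjusted p = 0.0167) and with voom on the recovered fragments at median-ratio library sizes (adjusted p = 0.0484).

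Cyp3a16, Cyp3a41a and Cyp3a44, known from fetal or female liver, were close to 0 in all 6 male livers and were not tested. Cyp3a16 rested on 0, 1 and 2 fragments in knockouts 1, 2 and 3, against 1, 0 and 1 in controls 1, 2 and 3. Cyp3a44 rested on 0, 3 and 2 fragments in the knockouts, against 1, 3 and 3 in the controls. Cyp3a41a had 0 fragments in every knockout, where a count of 0 allows up to 3 fragments a library, against 1, 0 and 0 in the controls. No difference was detectable at this depth. The near-identical Cyp3a41b, which is not among the 10 members, had 8, 12 and 7 fragments in knockouts 1, 2 and 3, against 0, 1 and 0 in controls 1, 2 and 3. It passed when no filter was set (adjusted p = 0.0446 by limma, where Cyp3a57 had 0.288). Of the 50-base windows of the Cyp3a11 transcript, 14.8% occur in those of other genes, Cyp3a41a, Cyp3a41b and Cyp3a44 among them. The part of such sharing in the Cyp3a41b values was not tested. Cyp3a41b and Cyp3a57 were chosen after their values were seen.

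Cyp2b9, a steroid-hydroxylating form that is higher in female liver, was at 54.6, 34.7 and 32.6 FPKM in knockouts 1, 2 and 3, against 112, 134 and 115 FPKM in controls 1, 2 and 3. Every knockout was below every control, and knockout 1 was the least reduced. The means were 40.6 ± 12.2 FPKM in knockout and 120 ± 12.3 FPKM in control livers (SD, n = 3 each), a ratio of 0.338. The difference was -1.58 ± 0.20 (SE, adjusted p = 0.00927 by limma), and Cyp2b9 was called in all 18 alternative fits, with differences from -1.80 to -1.44. The values rest on 989 to 1597 fragments in the knockouts and 3391 to 3991 in the controls.

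Cyp2b13, whose promoter window is nearly that of Cyp2b9, was far lower and did not follow it. It was at 6.50, 1.78 and 1.12 FPKM in knockouts 1, 2 and 3, against 2.28, 1.75 and 1.02 FPKM in controls 1, 2 and 3. Knockouts 2 and 3 lay within the control range and knockout 1 above it. The mean of Cyp2b9 was 13.0 times that of Cyp2b13 in knockout and 71.4 times in control livers. The difference of Cyp2b13 was 0.43 with a 95% interval from -0.67 to 1.52 (limma, adjusted p = 0.546), and without knockout 1 it turned to -0.12.

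Cyp2b10, the CAR target induced by phenobarbital, stood apart in 1 mouse. It was at 1.85, 1.86 and 77.4 FPKM in knockouts 1, 2 and 3, against 1.39, 0.0897 and 0.181 FPKM in controls 1, 2 and 3. Knockout 3 was 41.7 times the mean of the other 2 knockouts, which themselves lay just above control 1. In fragments these values were 61, 60 and 2643 in the knockouts, against 48, 3 and 6 in the controls, and no 100-base window of its transcript occurs in another gene's. The difference was 2.57 ± 1.26 (SE, adjusted p = 0.193 by limma). Without knockout 3 it was 0.97 (adjusted p = 0.101), and no alternative fit called it. The mean of the 3 knockouts, 27.0 ± 43.6 FPKM (SD), describes none of them.

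**Figure D2:**
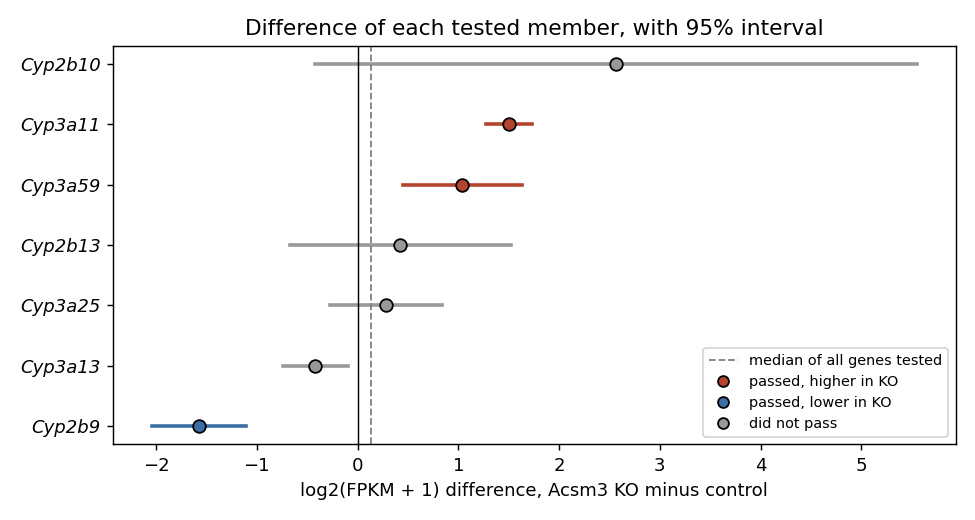
Difference in log2(FPKM + 1), Acsm3 knockout minus control, of each tested member with its 95% interval from limma (n = 3 livers each). The intervals of Cyp3a11, Cyp3a59, Cyp2b9 and Cyp3a13 lie clear of 0, although Cyp3a13 did not pass after adjustment, and that of Cyp2b10 is the widest, from -0.42 to 5.55. The dashed line marks the median of all genes tested, 0.13.

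The FPKM of the members were also summed by subfamily. The 7 Cyp3a members summed to 1344, 1307 and 1421 FPKM in knockouts 1, 2 and 3, against 892, 729 and 763 FPKM in controls 1, 2 and 3. All 3 knockouts were above all 3 controls (two-sided exact permutation p = 0.1, the smallest that 3 against 3 mice can give), with a ratio of means of 1.71, or 2.03 with coding transcript lengths. The share of Cyp3a11 in this sum was 59.2%, 62.9% and 53.1% in the knockouts, against 30.7%, 42.3% and 33.1% in the controls (exact permutation p = 0.1). The share of Cyp3a13 was 7.19%, 7.18% and 8.76% in the knockouts, against 13.8%, 20.97% and 18.8% in the controls (exact permutation p = 0.1). A share within a mouse is free of the scaling between libraries, and for both genes no knockout share reached the control range. Shares of the same sum depend on each other, however, so the share of Cyp3a13 also falls where Cyp3a11 rises. It is therefore no separate result, and in FPKM the ranges of Cyp3a13 overlapped. For Cyp3a25 the shares were 31.4%, 28.0% and 35.5% in the knockouts, against 53.2%, 34.9% and 46.7% in the controls, with ranges that overlapped (exact permutation p = 0.2). With coding transcript lengths these shares did not overlap (exact permutation p = 0.1). They were then 19.2%, 16.7% and 22.6% in the knockouts, against 40.1%, 24.0% and 34.5% in the controls.

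The 3 Cyp2b members summed to 63.0, 38.3 and 111 FPKM in knockouts 1, 2 and 3, against 115, 136 and 116 FPKM in controls 1, 2 and 3 (two-sided exact permutation p = 0.1). Knockouts 1 and 2 lay far below the controls, and knockout 3 lay only just below them. The Cyp2b9 share of this sum was 86.7% and 90.5% in knockouts 1 and 2 and 29.3% in knockout 3, against 96.8%, 98.6% and 99.0% in controls 1, 2 and 3. In knockout 3, 69.6% of the sum was Cyp2b10, against 0.0659% to 1.21% in the controls. With coding transcript lengths knockout 3 passed into the control range (exact permutation p = 0.3), and after quantile normalization p was 0.2. The difference between groups in the mean log2 sum was -0.92, against -0.55 without knockout 2 and -1.31 without knockout 3.

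**Figure D3:**
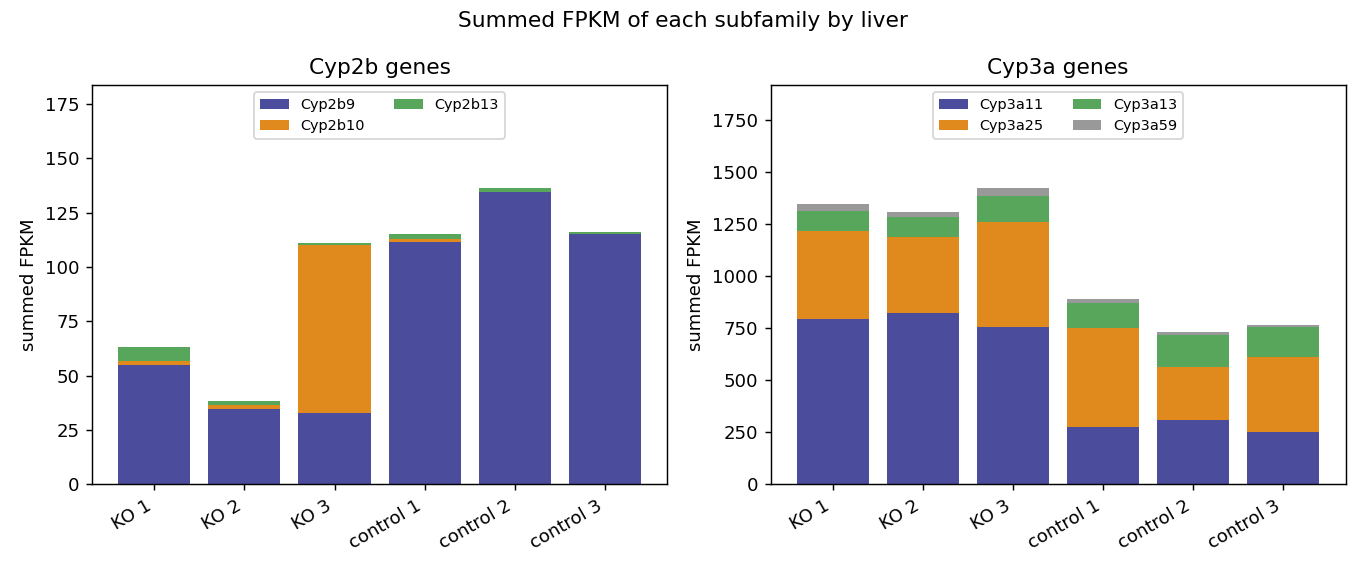
Summed FPKM of the Cyp2b members (left panel) and of the 4 Cyp3a members above the filter (right panel) in each liver, knockouts left of controls, with each colour 1 gene. The Cyp3a sums are higher in all 3 knockouts, mostly through Cyp3a11, and knockout 3 is the 1 liver in which Cyp2b10 makes up most of the Cyp2b sum.

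Bulk RNA cannot tell fewer cells of a type from less RNA per cell. Liver identity was plain, since 10 hepatocyte markers, albumin among them, summed to 35185 to 39178 FPKM in knockouts and 47508 to 56432 FPKM in controls, and 1 of them (Hnf4a) passed as higher and 3 (Alb, Pck1 and Ttr) as lower, where the shares over all genes tested were 13.9% and 2.61%. Of 6 listed intestinal epithelium markers, the 5 that matched a row summed to 128 to 143 FPKM in knockouts and 147 to 154 FPKM in controls. The 8 lymphocyte markers stayed between 1.03 and 3.54 FPKM. Summed markers of several other cell types were higher in every knockout than in every control, for stellate cells at 86.4 to 120 FPKM in knockouts against 39.5 to 47.8 FPKM in controls, with 7 of 9 called higher. The macrophage sum was 353 to 662 FPKM in knockouts against 219 to 333 FPKM in controls, but its 10 markers went both ways, with 4 called higher and Timd4 called lower. Likewise the sum was 34.1 to 66.7 FPKM in knockouts against 13.5 to 16.1 FPKM in controls for cholangiocytes and 75.0 to 98.5 FPKM in knockouts against 57.7 to 67.9 FPKM in controls for endothelial cells. It was 6.81 to 14.1 FPKM in knockouts against 1.61 to 1.89 FPKM in controls for adipocytes and 3.05 to 9.09 FPKM in knockouts against 1.23 to 2.39 FPKM in controls for neutrophils. These sums rest on few genes. Only 1 of 6 cholangiocyte, 2 of 6 adipocyte and 3 of 5 neutrophil markers reached a mean of 1 FPKM. The part of these cell types in the changes of the members was not tested. The hepatocyte sum was lower in the knockouts, but its markers went both ways, and its relation to Cyp2b9 and Cyp3a11 was not tested.

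The receptors that drive these genes gave no uniform picture. Of 14 tested receptors and partners, 1 rose and 1 fell, with a median difference of -0.03 where that of all genes tested was 0.13. Over all genes tested, 13.9% rose and 2.61% fell. CAR (Nr1i3) was at 12.9, 13.8 and 12.8 FPKM in knockouts 1, 2 and 3, against 20.7, 17.8 and 17.7 FPKM in controls 1, 2 and 3, so that it was lower in every knockout (-0.47 ± 0.08, adjusted p = 0.0194 by limma). PXR (Nr1i2) was at 34.4, 44.0 and 41.0 FPKM in the knockouts, against 48.9, 38.5 and 45.0 FPKM in the controls, with overlapping ranges (-0.15 ± 0.12, adjusted p = 0.441). Their shared partner Rxra was at -0.22 ± 0.08 (adjusted p = 0.0918 by limma), and passed in 2 of 18 alternatives, both with median-ratio scaling. Hnf4a, a hepatocyte factor that drives many P450 genes, rose (0.70 ± 0.12, adjusted p = 0.0194 by limma) but not after median-ratio rescaling. The calls of Nr1i3 and Hnf4a were each lost without knockout 1, control 2 or control 3, and that of Nr1i3 also without knockout 2, with adjusted p up to 0.0616.

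Of 14 tested genes of electron transfer and haem supply, 4 rose and 1 fell (median 0.04, against 0.13 over all genes). The shares over all genes tested were 13.9% higher and 2.61% lower. After median-ratio rescaling 2 rose and 3 fell, where over all genes 830 rose and 735 fell. The haem oxygenase Hmox1, which breaks haem down, was at 28.5, 31.2 and 26.5 FPKM in knockouts 1, 2 and 3, against 12.6, 10.7 and 9.12 FPKM in controls 1, 2 and 3 (1.34 ± 0.12, adjusted p = 0.00546 by limma). The other rises were those of cytochrome b5 reductase Cyb5r3 (0.68 ± 0.10), the haem-binding Pgrmc1 (0.63 ± 0.15) and cytochrome b5 type B, Cyb5b (0.27 ± 0.06), of which Pgrmc1 and Cyb5b were lost after median-ratio rescaling. Urod, a haem synthesis enzyme, was the gene that fell (-0.24 ± 0.06, adjusted p = 0.0454 by limma). Cyb5r3 was called in 16, Pgrmc1 in 12, Cyb5b in 7 and Urod in 9 of 18 alternatives. The calls of Cyb5b and Urod were lost without any 1 mouse. Those of Cyb5r3 and Pgrmc1 were lost without control 2 or control 3. That of Pgrmc1 was also lost without knockout 1, without knockout 2 and without a filter. P450 oxidoreductase, Por, was at 131, 174 and 242 FPKM in the knockouts, against 256, 205 and 244 FPKM in the controls (-0.41 ± 0.22, adjusted p = 0.230 by limma). Knockout 3 lay within the control range for Por, and knockouts 1 and 2 lay below it.

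Of 21 other target genes of CAR and PXR, a list that also holds Por, 5 rose and 0 fell (median 0.29, against 0.13 over all genes). Over all genes tested, 13.9% rose and 2.61% fell. After median-ratio rescaling 4 of the targets rose and 0 fell, where over all genes 830 rose and 735 fell. At an unadjusted p under 0.05 (limma), 9 were higher and 0 lower, where the shares over all genes tested were 28.8% higher and 6.56% lower, 35.3% in all. Without knockout 3, however, 5 rose and 3 fell, where over all genes 1968 rose and 282 fell. Those that fell were Cyp2c54 (-0.63, adjusted p = 0.0126), Por (-0.63, adjusted p = 0.0433) and the haem synthesis gene Alas1 (-1.09, adjusted p = 0.0484 by limma). The count of rises was 3 without knockout 1, knockout 2 or control 2, where over all genes 402, 248 and 270 rose. It was 2 without control 3, where over all genes 226 rose. The glutathione transferase Gstm1 was at 1054, 898 and 827 FPKM in knockouts 1, 2 and 3, against 415, 253 and 310 FPKM in controls 1, 2 and 3 (1.52 ± 0.19, adjusted p = 0.00926 by limma). The P450 gene Cyp2c55 was at 1.29, 1.38 and 4.31 FPKM in the knockouts, against 0.337, 0.222 and 0.160 FPKM in the controls (1.31 ± 0.32, adjusted p = 0.0385). The export pump Abcc3 (0.98 ± 0.10), the aldehyde dehydrogenase Aldh1a7 (0.87 ± 0.13) and, named after its value was seen, the export pump Abcc4 (0.81 ± 0.13) also rose. Abcc4 was near the filter, at 2.13, 1.67 and 1.38 FPKM in the knockouts, against 0.517, 0.613 and 0.498 FPKM in the controls. Cyp2c55 and Abcc4 reached the filter only through the knockouts, where they were high. Gstm1 and Abcc3 passed in all 18 alternatives, Aldh1a7 in 17 of them and Cyp2c55 in 7 of 16. Gstm1 is itself one of a family of close copies, so how its fragments were divided is uncertain.

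Cyp2b10 was not alone in setting knockout 3 apart. The following genes were chosen after their values were seen. Cyp2c29, a CAR-inducible P450 gene, was at 234, 244 and 734 FPKM in knockouts 1, 2 and 3, against 254, 158 and 222 FPKM in controls 1, 2 and 3. Cyp2c54 was at 68.9, 79.6 and 166 FPKM in the knockouts, against 110, 117 and 119 FPKM in the controls. Among the 21 targets, knockout 3 was the highest knockout for 15 and at least 2-fold above both other knockouts for 4, where the shares over all genes tested were 18.9% and 0.382%. Knockout 3 was also the highest knockout for 14 of 21 male-biased genes and 5 of 8 pericentral hepatocyte markers, so the position is not shown to be particular to these targets. No test was made on this single mouse, and what sets it apart was not tested.

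**Figure D4:**
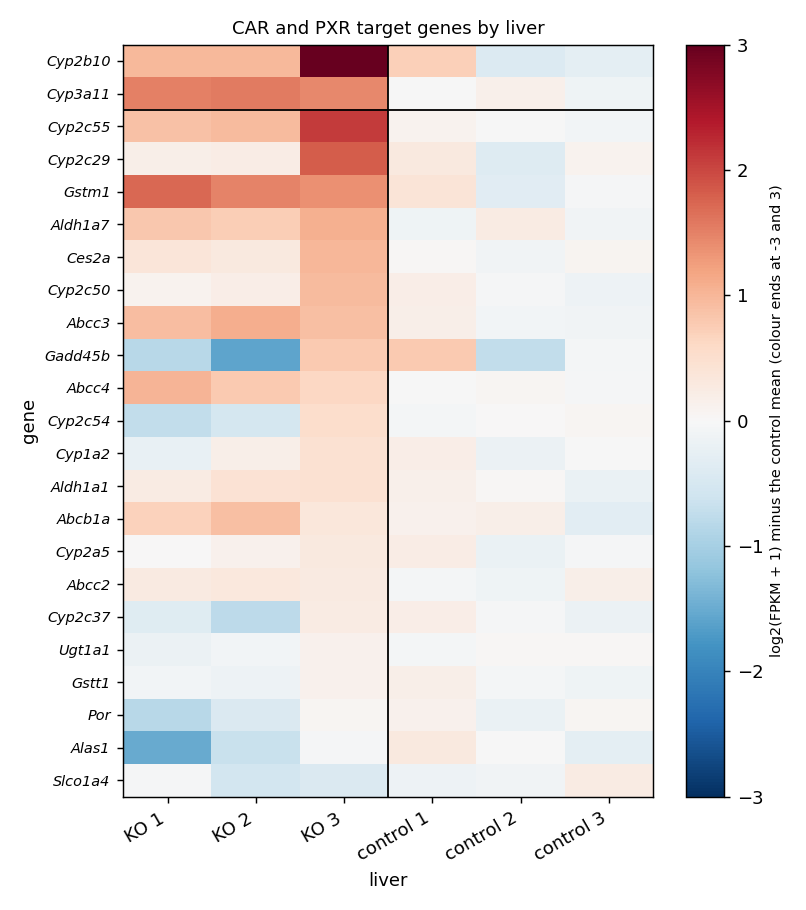
Difference of each liver from the control mean in log2(FPKM + 1) (colour) for Cyp2b10 and Cyp3a11 (top) and the 21 other CAR and PXR target genes (below, ordered by knockout 3), knockouts left of controls. Colours end at -3 and 3, and only Cyp2b10 in knockout 3 lies past an end. Cyp3a11 and Gstm1 are raised alike in the 3 knockouts, whereas Cyp2b10, Cyp2c55 and Cyp2c29 are highest in knockout 3.

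Cyp2b9 is one of the genes that differ between the sexes in mouse liver, and the lists of such genes were set beside it. Of 9 tested genes that are higher in female liver, 0 rose and 3 fell (median -0.73, against 0.13 over all genes). Over all genes tested, 13.9% rose and 2.61% fell. After median-ratio rescaling 4 of the 9 fell, where over all genes 735 fell. At an unadjusted p under 0.05 (limma), 6 of the 9 were lower and 1, Slc22a27 (0.35 ± 0.13), was higher. The shares over all genes tested were 6.56% lower and 28.8% higher at that p. The peroxisomal thioesterase Acot3 was at 4.84, 7.55 and 9.78 FPKM in knockouts 1, 2 and 3, against 43.9, 39.9 and 48.7 FPKM in controls 1, 2 and 3 (-2.47 ± 0.22, adjusted p = 0.00451 by limma). The steroid 17-alpha-hydroxylase Cyp17a1 (-2.02 ± 0.22) and the organic anion transporter gene Slc22a26 (-0.73 ± 0.14) also fell, the last of these in 11 of 17 alternatives. Slc22a26 was near the filter, at 0.871, 0.709 and 0.839 FPKM in the knockouts, against 1.74, 2.63 and 1.68 FPKM in the controls. It reached the filter only through the controls, where it was high. The close paralog of Cyp2b9 did not follow, and the female-biased Cyp2a4 and Cyp2a22, which lie in the same gene cluster on chromosome 7, were at 0.02 ± 0.27 and 0.09 ± 0.30. In that cluster Cyp2a12 alone of 5 tested neighbours passed (0.59 ± 0.12, adjusted p = 0.0287 by limma), and it did not pass after median-ratio rescaling.

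Of 21 tested genes that are higher in male liver, 3 rose and 1 fell (median 0.61, against 0.13 over all genes). The share that rose was close to the 13.9% over all genes tested. The pheromone carrier Mup20 was at 3027, 4319 and 3039 FPKM in knockouts 1, 2 and 3, against 1233, 646 and 893 FPKM in controls 1, 2 and 3 (1.93 ± 0.26, adjusted p = 0.0108 by limma). Selenbp2 (1.79 ± 0.17) and the complement gene C6 (1.43 ± 0.18) also rose, while the steroid dehydrogenase Hsd3b5 fell (-1.50 ± 0.31), the opposite way to these. Selenbp2 was at 5.31, 6.68 and 3.73 FPKM in the knockouts, against 0.754, 0.862 and 0.701 FPKM in the controls. Hsd3b5 was at 0.166, 0.295 and 0.798 FPKM in the knockouts, against 2.45, 1.83 and 5.30 FPKM in the controls. Both reached the filter only through the group where they were high. Mup20, Selenbp2 and C6 were called in every alternative in which they were tested, and Hsd3b5 in 11 of 17. Of 10 tested genes of the growth hormone and STAT5 axis, 2 rose and 2 fell, where 13.9% and 2.61% of all genes tested did so. After median-ratio rescaling 0 of the 10 rose and 3 fell, where over all genes 830 rose and 735 fell. The hormone Igf1 was at 54.2, 49.5 and 62.9 FPKM in the knockouts, against 80.4, 73.2 and 83.8 FPKM in the controls (-0.51 ± 0.11, adjusted p = 0.0279 by limma), and its carrier Igfals was at -0.81 ± 0.15 (adjusted p = 0.0210). Igf1 was called in 12 and Igfals in 13 of 18 alternatives, and both were lost without a filter, without knockout 1 and without any 1 control. Stat5a (0.49 ± 0.10) and Jak2 (0.37 ± 0.09) rose, and both calls were lost after median-ratio rescaling and after quantile normalization. Stat5b, the form that carries most of the sex difference in liver, was at 0.27 ± 0.09 (adjusted p = 0.0737 by limma).

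**Figure D5:**
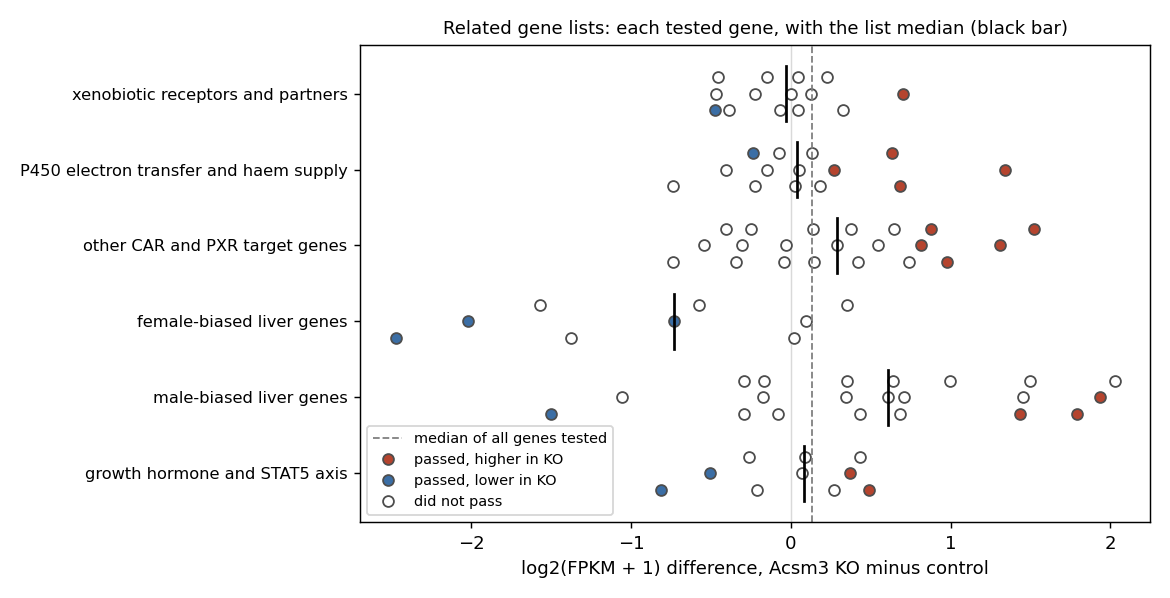
Difference in log2(FPKM + 1), Acsm3 knockout minus control, of every tested gene in 6 related lists, with filled points for genes that passed (limma, adjusted p under 0.05), black bars for list medians and a dashed line for the median of all genes, 0.13. The median of the female-biased list is -0.73 and that of the male-biased list 0.61.

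For each member that passed, the genes of most similar profile were sought by the root mean square distance between centred log2(FPKM + 1) values over the 6 mice. Nearest to Cyp3a11 were Smpd3 (distance 0.0468), Col14a1 (0.114), Serpinh1 (0.118), 2010003K11Rik (0.125) and S100a10 (0.125). Smpd3 was low, at 3.28, 3.50 and 3.11 FPKM in knockouts 1, 2 and 3, against 0.503, 0.567 and 0.292 FPKM in controls 1, 2 and 3. At such levels the +1 understates the change, so a small distance does not mean an equal fold change. Smpd3 encodes a sphingomyelinase, and Col14a1 and Serpinh1 a collagen and a collagen chaperone. Nearest to Cyp2b9 were Raet1d (0.240), Fads3 (0.285), Sult2a7 (0.311), Zfp395 (0.318) and Mt2 (0.336), among them a fatty acid desaturase, a sulfotransferase and a metallothionein. Sult2a7 was likewise low, at 0.753, 0.716 and 0.726 FPKM in knockouts 1, 2 and 3, against 2.59, 3.16 and 4.13 FPKM in controls 1, 2 and 3. Nearest to Cyp3a59 were Ddit3 (0.161), Slc25a30 (0.186), Hspb1 (0.191), Ablim3 (0.198) and Map3k13 (0.217), where Ddit3 encodes a stress-induced transcription factor and Hspb1 a small heat shock protein.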

How the data were processed

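RNA sequencing of 6 male mouse livers, 3 Acsm3 knockout and 3 control, was taken from 1 deposited table of FPKM values for 28450 genes, which the authors scaled to gene length and library total. Per the submitters' processing notes the build was GRCm38 and the tools were StringTie 1.3.0, HISAT2 2.0.4 and Bowtie2 2.2.6, with no roles stated. The sources used here give neither the strand setting nor the treatment of fragments shared by copies. Columns were matched to samples by title. The labels give separate mice, and p-values measure the spread between 3 mice a group.

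The 10996 genes whose mean reached 1 FPKM were tested on log2(FPKM + 1) with limma 3.58.1 in R 4.3.3 (lmFit, eBayes with trend), and p-values adjusted by Benjamini-Hochberg were called under 0.05. Sums and shares were tested with exact permutation over mice. Exon lengths came from GENCODE M21, in which 28411 identifiers were found. With totals estimated from the steps of low values, 95.3% of values above 0 lay within 0.1 of a whole fragment. Voom (limma) on these fragments, an alternative chosen after the data were seen, called 1819 genes higher and 325 lower. The fragments over all genes summed to more than the totals, which are estimates.

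The members and gene lists were chosen with earlier results of these data known. Named genes were Acsm3, the members, Nr1i3, Nr1i2, Rxra, Hnf4a and Por, up to 4 called genes of largest difference from each list, and the 5 nearest profiles of each called member. Urod, Abcc4, Alas1, Slc22a27, Timd4, Alb, Pck1, Ttr, Stat5b, Cyp2a4, Cyp2a22, Cyp2c29, Cyp2c54, Cyp3a41b and Cyp3a57 were chosen after their values were seen. Some listed genes matched no row by symbol, and others are not named here. Alternatives were pseudocounts of 0.1 and 5, no filter or one at 5 FPKM, median-ratio and quantile scaling, limma without trend, robust or with array weights, a replicate block, leaving out each mouse, and, chosen after the data were seen, voom and coding transcript lengths. The fit of knockout against control was tested on simulated data in which 200 of the 10996 genes were changed. It called 94.3% of those changed 4-fold, 80.2% of those changed 2-fold and 48.5% of those changed 1.5-fold in the right direction. Of its calls, 5.00% were unchanged genes. The simulated share of changed genes was far below the 16.5% called in the data, and genes varied independently. These rates therefore need not hold for the data. Other software was matplotlib 3.10.9, numpy 2.4.6, pandas 2.3.3 and Python 3.11.15.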

Additional observations from a re-analysis of the deposited data

How the results depend on the processing

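Cyp3a11 and Cyp2b9 kept direction and call in all 18 alternatives, and the subfamily sums and the shares of Cyp2b9 and Cyp3a11 kept their direction in all of theirs. The members called higher were 1 (Cyp3a59 lost) without a filter and after median-ratio rescaling, and 1 to 2 with each mouse left out. The members called lower were 2 (Cyp3a13 added) with array weights and with voom at median-ratio sizes, and 1 to 2 with each mouse left out. The difference of Cyp2b13, 0.43 with all mice, was -0.12 without knockout 1, and with each mouse left out it spanned -0.12 to 0.79; the cause was not tested. Over all genes, 1532 were higher and 287 lower, against 544 and 106 without a filter, 848 higher with a filter at 5 FPKM, 830 and 735 after median-ratio rescaling, 783 and 612 with quantile normalization, 2742 and 537 with array weights and 975 and 799 with voom at median-ratio sizes, and 226 to 1968 higher and 55 to 282 lower with each mouse left out. The median difference of all genes, 0.13, became -0.00091 after median-ratio rescaling, where Cyp3a11 was at 1.34 and Cyp2b9 at -1.74. The labels do not pair mice of the same number. Deviations from the group means correlated at 0.111, 0.0918 and 0.187 for numbers 1, 2 and 3, and every mouse correlated best with its own number, a hint from the data and not the design. With a replicate block, 1672 genes were higher and 346 lower, 2 members were higher and 1 lower, and no call of a member changed. The Cyp2b9 share of the Cyp2b sum was lower by 9.52 points without knockout 3, against 29.3 points with all mice. Adding the other listed genes to the sum behind a share gave no value for Cyp2b, whose other listed genes, Cyp2b19 and Cyp2b23, matched no row by symbol. Members near 0 rest on at most 3 fragments, which limits any statement on them.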
